A study of Mus musculus with 24 samples.

Results

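Gene expression was compared between the opposite corners of a design that crossed loss of Grn with lipofuscin content, namely the lipofuscin-high bin of GrnKO animals (GrnKO high) and the lipofuscin-low bin of wild-type animals (WT low). Libraries were taken by their labelled genotype and bin, which gave 6 GrnKO high and 6 WT low libraries, 12 of the 24 in the series. The 12 libraries came from 12 different animals, each used once, so the comparison was unpaired. GrnKO animals were Grn-/- and WT animals Grn+/+. All were 19 months old, on the C57Bl/6J background, and carried the hTfRmu/hu knock-in, a humanized transferrin receptor allele that the controls share. Each genotype held 3 animals labelled male and 3 labelled female. Whole brains were dissociated with actinomycin D and anisomycin, inhibitors of transcription and translation, present throughout. From each, 1000 CD11b+/CD45+ cells per bin were sorted by autofluorescence in the 488 nm channel. The sources used here do not give the gate limits or say whether GrnKO and WT brains shared them. The remaining groups, GrnKO low and WT high, came from the same animals and are used here to split the difference between the corners.

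Microglia are the resident macrophages of the brain. They clear debris, lipid and dying cells through the lysosome. Grn encodes progranulin, a secreted protein that is sorted to lysosomes and cut there into granulins. Its loss is known to impair lysosomal lipid handling and, in people with 2 defective copies, to cause a neuronal ceroid lipofuscinosis, a disease named for the lipofuscin that fills cells. Lipofuscin is the autofluorescent, indigestible residue of lipid and protein that accumulates in ageing lysosomes. Microglia that meet damaged tissue or excess lipid adopt a programme known as disease-associated microglia (DAM), with high Apoe, Cst7, Gpnmb and cathepsins and lower homeostatic genes, and part of it depends on the receptor TREM2.

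Total counts were 25.1 to 46.8 M (mega counts) per GrnKO high library and 12.9 to 38.4 M per WT low library. Grn had 0.519, 2.49 and 17.8 CPM as the lowest, median and highest GrnKO high library, against 438, 618 and 803 CPM in WT low (log2 fold change, log2FC, -7.20, SE 0.939, edgeR adjusted p = 0.000112). No library went against its genotype label. CPM are counts divided by the TMM-scaled library size in M. The markers of the labelled cell type were present in each library: 15 core microglia genes summed to 64630 to 74719 CPM in GrnKO high and 24395 to 58364 CPM in WT low. The 2 ranges did not overlap. Of the 15, 7 were called higher (Trem2, Aif1, C1qb, C1qa, C1qc, Fcrls and Ctss), against 1.00% of all tested genes, and 0 lower. A positive log2FC was seen in 10. The part that the share of microglia in each library had in the genes called higher was not tested. The sex labels did not match the data. Xist, transcribed from an inactive X chromosome, was 1.01 to 2.21 CPM in the libraries labelled female and 700 to 2267 CPM in those labelled male, over all 24 libraries. The labels are therefore used only as 2 classes. Choroid plexus and ependyma markers, which brain microglia do not express, summed to 29.9 to 1883 CPM in GrnKO high, but to 26005 CPM in the WT low library of animal 1 and 82932 CPM in that of animal 9. The other 4 WT low libraries had 18.3 to 316 CPM. Astrocyte markers summed to 229 to 433 CPM in GrnKO high and 357 to 2360 CPM in WT low. Of 12 tested, 11 had a negative log2FC, 6 had an unadjusted edgeR p under 0.05 and 0 were called. Pericyte and smooth muscle markers summed to 1.48 to 54.0 CPM in GrnKO high and 27.2 to 573 CPM in WT low. Of 8 tested, 8 had a negative log2FC, 4 had an unadjusted edgeR p under 0.05 and 0 were called. Erythrocyte markers summed to 15.9 to 11052 CPM in GrnKO high and 4.67 to 37.8 CPM in WT low, with 0 of 5 called by edgeR but 5 at an unadjusted p under 0.05. The WT low library of animal 1 also held the highest share of mitochondrial counts, 9.70%. Of the groups used to split the difference, choroid plexus markers summed to 158 to 1676 CPM in GrnKO low and 741 to 2000 CPM in WT high, apart from 28767 CPM in the GrnKO low library of animal 8 and 20995 CPM in the WT high library of animal 1, which had 7.91% mitochondrial counts. Erythrocyte markers reached 37517 CPM in GrnKO low and 6639 CPM in WT high, and B cell markers 16726 CPM in the GrnKO low library of animal 2 and 2686 CPM in WT high. In bulk libraries, fewer cells of a type and less RNA per cell cannot be told apart.

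Of 14090 genes tested, 222 (1.58%) passed an adjusted p of 0.05 in GrnKO high against WT low. Of these, 141 (1.00% of the tested genes) were higher and 81 (0.575%) lower in GrnKO high, and 93 of the 141 and 67 of the 81 changed at least 2-fold. The 6 GrnKO high libraries lay above all 6 WT low libraries for 123 of the 141 genes and below them for 48 of the 81. Over all tested genes, such complete separation occurred in 254 genes (1.80%) above and 124 genes (0.880%) below. The median log2FC over all tested genes was -0.12. Scaling by library size alone moved that median to -0.37 and turned the balance of calls, with 82 higher and 229 lower, or 26.4% higher against 63.5% under TMM, and 162 of the 222 genes were called under both scalings. The balance also turned in fits with other tests or filters, to 44.3% higher by DESeq2 (336 higher and 423 lower) and 39.4% with no filter beyond 1 count (270 higher and 416 lower). The TMM factors were 0.834 to 0.995 in GrnKO high and 1.02 to 1.18 in WT low. Direction for small changes therefore depends on the scaling, and list medians below are to be read against the median of all genes. The number of calls fell to 130, 141 and 133 without animals 3, 4 and 6, in that order.

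The DAM programme was the gene list with the highest share of called members. The lists were chosen with earlier results of these data known, so this rank is a description and tests nothing. Of 35 tested members, 21 rose and 0 fell, with a median log2FC of 1.28 against -0.12 for all tested genes. All 6 GrnKO high libraries were above all WT low libraries for 24 of the 35. Gpnmb (ENSMUSG00000029816), a transmembrane glycoprotein of late endosomes and lysosomes, had 450, 408, 570, 494, 511 and 375 CPM in the GrnKO high libraries of animals 2, 4, 6, 8, 10 and 12, against 0.831, 1.46, 3.35, 2.18, 1.37 and 0.520 CPM in the WT low libraries of animals 1, 3, 5, 7, 9 and 11. Every GrnKO high library was far above every WT low library, and the fitted log2FC was 8.18 (SE 0.470, adjusted p = 4.97e-12). Fabp5, an intracellular fatty acid carrier, had 1219, 1459 and 2525 CPM as the lowest, median and highest GrnKO high library, against 66.1, 140 and 197 CPM in WT low (log2FC 3.56, SE 0.201, adjusted p = 4.97e-12). These were the smallest adjusted p of the comparison. Igf1, a growth factor that DAM secrete, had 131, 165 and 256 CPM in GrnKO high and 9.68, 18.2 and 24.5 CPM in WT low (log2FC 3.32, SE 0.238, adjusted p = 4.60e-10). Cst7, which encodes the endolysosomal cathepsin inhibitor cystatin F, had 692, 970 and 1245 CPM in GrnKO high and 71.3, 134 and 256 CPM in WT low (log2FC 2.69, SE 0.263, adjusted p = 3.09e-07). Neither gene overlapped between the groups. Cd63, a tetraspanin of late endosomes, had 10762, 11968 and 14033 CPM in GrnKO high and 2192, 2608 and 4311 CPM in WT low (log2FC 2.10, SE 0.144, adjusted p = 2.06e-10). Apoe, an apolipoprotein that ships lipid between brain cells, had 21800, 28556 and 38590 CPM in GrnKO high and 2645, 5317 and 10239 CPM in WT low (log2FC 2.35, SE 0.244, adjusted p = 7.97e-07). Apoe and Cd63 were thus among the abundant transcripts in both groups and still did not overlap between them. For Spp1, which encodes osteopontin, the groups overlapped. It had 1500, 2857 and 7455 CPM in GrnKO high and 353, 559 and 1536 CPM in WT low, with 5 of 6 GrnKO high libraries above all WT low libraries (log2FC 2.28, SE 0.293, adjusted p = 2.52e-05).

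**Figure D1:**
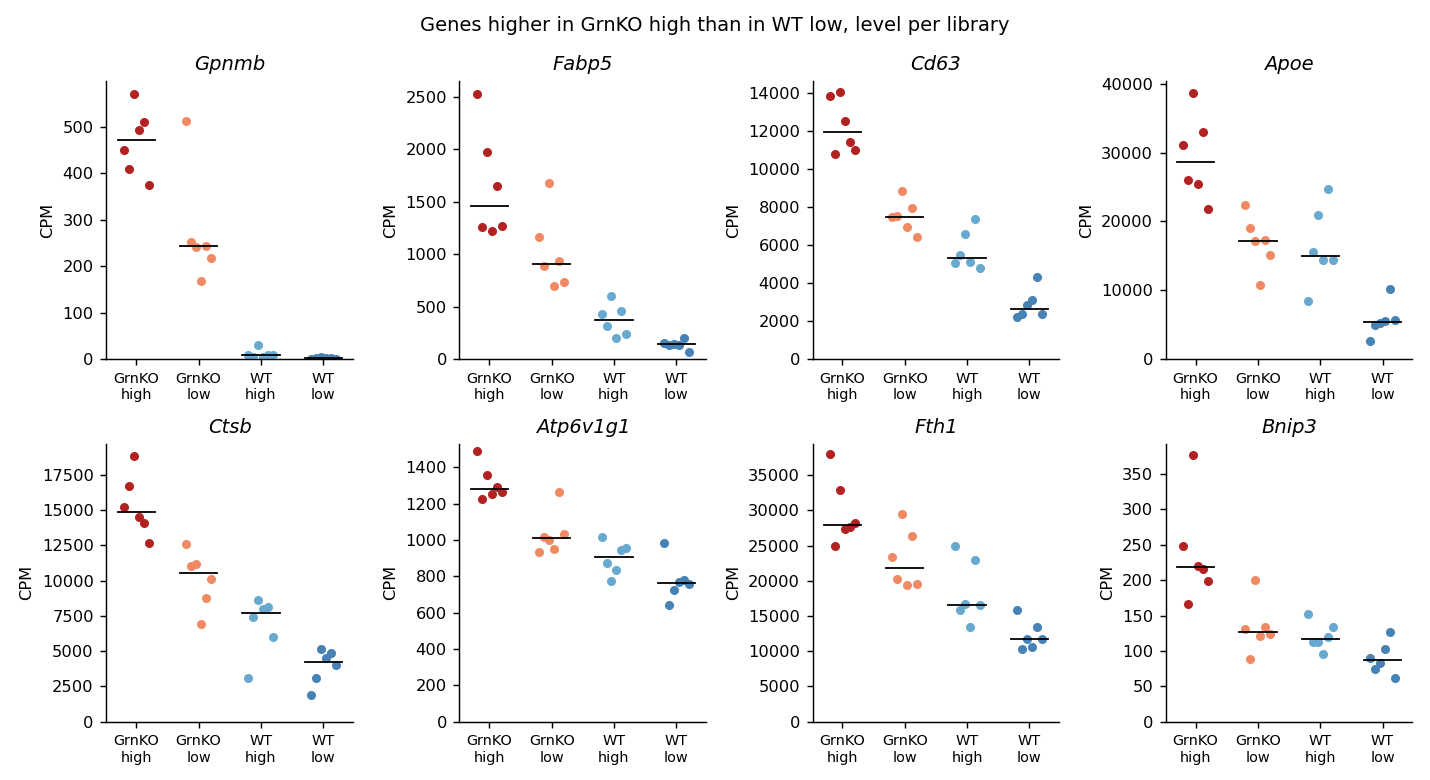
Level of 8 genes that were called higher, in CPM on a linear axis from 0, with 1 point per library, 6 libraries per group and a bar at the group median; groups run from GrnKO high at the left to WT low at the right. For each of the 8 genes the GrnKO high libraries lie above all WT low libraries; Gpnmb is 375 to 570 CPM in GrnKO high and 0.520 to 3.35 CPM in WT low.

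Of 25 genes that mark resting microglia, 2 were called, and the median log2FC was -0.06, near that of all genes. Fcrls, an Fc receptor-like protein, rose, with 1052, 1137 and 1373 CPM in GrnKO high and 287, 751 and 835 CPM in WT low (log2FC 0.79, SE 0.198, adjusted p = 0.0370). That call was lost without any 1 of animals 2, 3, 4, 6, 7, 8, 10, 11 and 12 (adjusted p up to 0.107) and with library size alone (adjusted p = 0.201), where 4 members fell and 0 rose.

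Lysosomal genes are described next, without a ranking. They were split by role into proteases with their inhibitors, other hydrolases, membrane proteins with transporters, and the proton pump. Across the 4 lists 30 genes rose and 0 fell. The 30 include Gpnmb, Cd63, Cd68, Cst7, Ctsb, Ctsd, Ctsl and Ctsz, which were also counted in the DAM list. Of 22 tested proteases and inhibitors, 9 rose, with a median log2FC of 0.61. Ctsb, a cysteine cathepsin, had 12658, 14858 and 18857 CPM in GrnKO high and 1889, 4256 and 5174 CPM in WT low (log2FC 1.97, SE 0.229, adjusted p = 5.46e-06). Ctsd, the main aspartic cathepsin, had 12108, 14308 and 20782 CPM in GrnKO high and 1889, 4830 and 5928 CPM in WT low (log2FC 1.78, SE 0.266, adjusted p = 0.000217). For both cathepsins the lowest GrnKO high library was above the highest WT low library by a wide margin. Ctsa, the protective protein of the lysosomal sialidase complex, had 1102, 1291 and 1666 CPM in GrnKO high and 302, 667 and 707 CPM in WT low (log2FC 1.20, SE 0.211, adjusted p = 0.00151).

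Of 37 other hydrolases, 8 rose and the median log2FC was 0.63. Pld3, a lysosomal enzyme of the phospholipase D family, had 346, 485 and 702 CPM in GrnKO high and 8.31, 97.1 and 167 CPM in WT low (log2FC 2.42, SE 0.435, adjusted p = 0.00211). Hexa, the alpha subunit of hexosaminidase that degrades gangliosides, had 914, 990 and 1076 CPM in GrnKO high and 219, 556 and 586 CPM in WT low (log2FC 1.05, SE 0.210, adjusted p = 0.00613). Lipa, the acid lipase of cholesteryl esters, had 69.2, 105 and 122 CPM in GrnKO high and 38.5, 49.2 and 66.5 CPM in WT low (log2FC 0.97, SE 0.210, adjusted p = 0.0119). None of the 3 overlapped between the groups. Hpse, the heparan sulfate-cutting heparanase, was at 21.5, 54.5 and 74.5 CPM in GrnKO high and nearly absent from WT low, at 0, 0.196 and 4.48 CPM (log2FC 6.49, SE 1.16, adjusted p = 0.00192), so the size of its fold rests on very few WT counts. The calls of Hexa and Lipa were lost with library size alone (adjusted p = 0.0555 and 0.0741), under which 2 hydrolases were called, and that of Lipa also without animal 4 (adjusted p = 0.0544). The hydrolase count was also 5, 4, 3, 5, 5 and 5 without animals 2, 3, 4, 6, 7 and 12, in that order.

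Of 35 lysosomal membrane proteins and transporters, 8 rose, while the median log2FC was 0.19 and turned to -0.06 with library size alone. Cd68, a heavily glycosylated macrophage lysosomal protein, had 3294, 4096 and 5881 CPM in GrnKO high and 605, 1471 and 1670 CPM in WT low (log2FC 1.68, SE 0.233, adjusted p = 7.65e-05). Npc2, which hands cholesterol from the lysosomal lumen to the membrane, had 1983, 2028 and 2324 CPM in GrnKO high and 401, 882 and 1024 CPM in WT low (log2FC 1.37, SE 0.195, adjusted p = 0.000112). Mcoln3, an endolysosomal cation channel, had 9.22, 11.2 and 14.8 CPM in GrnKO high and 0 in 5 of 6 WT low libraries, the sixth having 0.216 CPM (adjusted p = 0.0138). It was in effect detected in GrnKO high and not in WT low.

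Of 19 subunits of the V-ATPase, the pump that acidifies lysosomes, 5 rose and the median log2FC was 0.58. Atp6v1g1 of the cytosolic sector had 1225, 1279 and 1488 CPM in GrnKO high and 641, 763 and 982 CPM in WT low (log2FC 0.76, SE 0.120, adjusted p = 0.000429). Atp6v1f of the same sector had 758, 884 and 1384 CPM in GrnKO high and 448, 474 and 620 CPM in WT low (log2FC 0.90, SE 0.162, adjusted p = 0.00192). Atp6v0c, the ring subunit that carries protons, had 1406, 1591 and 1903 CPM in GrnKO high and 423, 742 and 1078 CPM in WT low (log2FC 1.11, SE 0.200, adjusted p = 0.00192). These general subunits changed by 1.69-fold to 2.17-fold. Atp6v0d2, an isoform of the membrane sector known from osteoclasts and activated macrophages, instead had 11.9, 24.9 and 52.6 CPM in GrnKO high and 0, 0.0172 and 0.431 CPM in WT low (log2FC 8.36, SE 1.27, adjusted p = 0.000261). Without animal 1, 8 subunits were called.

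Many lysosomal genes are known to carry a CLEAR-type E-box, the site bound by TFEB and its relatives. RefSeq promoters of the GRCm38.p6 assembly, from 250 bases before to 50 bases after the gene start, were searched for TCACGTG on either strand (CACGTGA on the other, so that TCACGTGA matches both). Of the 30 called lysosomal genes, 25 had a promoter in the table and 6 of these (24%) held the motif: Ctsa, Ctsd, Dpp7, Gla, Lamp1 and Mfsd1. The calls of Dpp7 and Gla were each lost without most single animals (adjusted p up to 0.0814 and 0.0982). Among tested lysosomal genes that were not called, 14 of 63 (22.2%) held it, so its presence did not set the called genes apart within the lysosomal lists. Over all tested genes with a promoter it was 709 of 10208 (6.95%), and over all 32851 promoters 3.77%. A match describes letters in this window and is not a measured binding site. In Dpp7 it was a single TCACGTGA, which counts as 2 matches. All 6 had more than 1 match when counted this way. The promoters of 3 of them are printed as examples, an abundant protease and 2 membrane proteins, with each match in capitals, 5′ to 3′ on the strand of the gene. They are Ctsd (chr7:142387778-142388077, minus strand), Lamp1 (chr8:13158911-13159210, plus strand) and Mfsd1 (chr3:67582518-67582817, plus strand).
Ctsd: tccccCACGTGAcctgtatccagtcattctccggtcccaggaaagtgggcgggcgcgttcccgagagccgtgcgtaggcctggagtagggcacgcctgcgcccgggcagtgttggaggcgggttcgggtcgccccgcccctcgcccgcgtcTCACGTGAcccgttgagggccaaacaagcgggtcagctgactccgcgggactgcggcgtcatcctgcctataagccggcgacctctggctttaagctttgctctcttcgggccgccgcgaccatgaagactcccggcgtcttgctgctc
Lamp1: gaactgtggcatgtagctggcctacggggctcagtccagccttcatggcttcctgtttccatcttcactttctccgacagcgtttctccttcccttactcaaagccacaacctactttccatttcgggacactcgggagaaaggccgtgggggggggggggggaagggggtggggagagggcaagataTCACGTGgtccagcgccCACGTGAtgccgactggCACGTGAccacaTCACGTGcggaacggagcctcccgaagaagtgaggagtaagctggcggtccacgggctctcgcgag
Mfsd1: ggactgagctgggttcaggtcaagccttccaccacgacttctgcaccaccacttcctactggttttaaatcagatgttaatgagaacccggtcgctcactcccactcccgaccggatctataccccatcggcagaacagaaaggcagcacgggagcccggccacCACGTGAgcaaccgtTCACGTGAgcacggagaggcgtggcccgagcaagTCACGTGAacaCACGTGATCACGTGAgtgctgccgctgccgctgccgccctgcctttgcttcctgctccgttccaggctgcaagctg
Ctsd, Lamp1 and Mfsd1 held 3, 4 and 8 matches on the 2 strands, where TCACGTGA counts on each, and Ctsa, Gla and Dpp7 held 4, 4 and 2. The values of these genes are given above for Ctsd and Ctsa and here for the others, which were chosen for their motif after their values were seen. Lamp1, the most abundant lysosomal membrane glycoprotein of many cells, had 1072, 1278 and 1579 CPM in GrnKO high and 499, 593 and 701 CPM in WT low (log2FC 1.11, SE 0.171, adjusted p = 0.000334). Mfsd1, a lysosomal transporter, had 135, 161 and 219 CPM in GrnKO high and 47.6, 105 and 150 CPM in WT low (log2FC 0.77, SE 0.194, adjusted p = 0.0375, and up to 0.224 under other settings, with the call lost without any 1 of animals 2, 4, 5, 6, 7, 8, 9, 10 and 11). Gla, which encodes alpha-galactosidase A, had a log2FC of 2.17 (SE 0.547, adjusted p = 0.0389) and Dpp7, a dipeptidyl peptidase, of 1.66 (SE 0.407, adjusted p = 0.0327).

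Genes for lipid carriage and storage gave few calls beyond the DAM genes. Of 28 tested, 4 rose and 0 fell, with a median log2FC of 0.13 that turned to -0.14 with library size alone. Besides Apoe and Fabp5 these were Apoc4 and Soat1. Apoc4, an apolipoprotein gene of the Apoe cluster, had 30.5, 44.1 and 78.9 CPM in GrnKO high and 0.302, 5.14 and 10.2 CPM in WT low (log2FC 3.14, SE 0.708, adjusted p = 0.0169). Soat1, which esterifies cholesterol for storage in droplets, had 104, 129 and 167 CPM in GrnKO high and 48.2, 73.3 and 102 CPM in WT low (log2FC 0.81, SE 0.170, adjusted p = 0.00866). Both genes were separated between the groups, but neither call held throughout: that of Apoc4 was lost without animal 5 or animal 11 (adjusted p up to 0.0555) and that of Soat1 with library size alone (adjusted p = 0.0952). Reads of Apoc4 may be shared with neighbouring genes of the Apoe cluster, since the sources used here do not state how strand was handled. Of 29 genes of cholesterol and fatty acid synthesis, 0 were called by edgeR, DESeq2 or limma-voom (3 at an unadjusted edgeR p under 0.05) and the median log2FC was 0.10, or -0.18 with library size alone. Of 19 genes for partners of progranulin and for the lysosomal lipid bis(monoacylglycero)phosphate, 3 rose and 0 fell, with a median of 0.16, or -0.09 with library size alone. They included Pld3 and Npc2, already described.

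Both subunits of ferritin, the iron store, rose together. They were the only 2 of 14 tested iron genes called, and the list median of 0.14 turned to -0.09 with library size alone. Fth1, the heavy chain, had 24864, 27885 and 38052 CPM in GrnKO high and 10334, 11767 and 15870 CPM in WT low (log2FC 1.28, SE 0.119, adjusted p = 1.34e-07). Ftl1, the light chain, had 5567, 7422 and 8771 CPM in GrnKO high and 1738, 3163 and 3794 CPM in WT low (log2FC 1.27, SE 0.163, adjusted p = 2.44e-05). Ferritin genes have near-identical pseudogenes in the mouse, so their counts are uncertain to the extent that reads were split among copies.

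Among 28 antioxidant and glutathione genes, 4 rose and 0 fell, with a median log2FC of 0.10, or -0.15 with library size alone. Gpx3, a secreted glutathione peroxidase, had 200, 277 and 415 CPM in GrnKO high and 0.453, 11.7 and 22.9 CPM in WT low (log2FC 4.63, SE 0.687, adjusted p = 0.000343). Prdx4, a peroxiredoxin of the endoplasmic reticulum, had 227, 265 and 381 CPM in GrnKO high and 96.4, 110 and 178 CPM in WT low (log2FC 1.21, SE 0.191, adjusted p = 0.000430). Prdx1, its cytosolic relative, had 3711, 4259 and 5701 CPM in GrnKO high and 1670, 2358 and 3250 CPM in WT low (log2FC 0.94, SE 0.180, adjusted p = 0.00371). The groups were separated in all 3, with a 24.8-fold difference in Gpx3 and 2.31-fold and 1.92-fold differences in Prdx4 and Prdx1.

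Of 27 genes of glycolysis and the hypoxia response, 8 rose and 0 fell, and the median log2FC was 0.64. Bnip3, a hypoxia-induced mitophagy receptor, had 167, 219 and 377 CPM in GrnKO high and 61.4, 86.7 and 127 CPM in WT low (log2FC 1.39, SE 0.188, adjusted p = 5.10e-05). Aldoa, aldolase A, had 469, 577 and 789 CPM in GrnKO high and 166, 231 and 404 CPM in WT low (log2FC 1.30, SE 0.221, adjusted p = 0.00108). Tpi1, triosephosphate isomerase, had 305, 379 and 614 CPM in GrnKO high and 71.0, 132 and 264 CPM in WT low (log2FC 1.50, SE 0.281, adjusted p = 0.00293). These 3 genes were separated between the groups, as was Pgam1, phosphoglycerate mutase, with 199, 241 and 373 CPM in GrnKO high and 33.3, 116 and 156 CPM in WT low (log2FC 1.19, SE 0.259, adjusted p = 0.0127). The list count was 4 without animal 3, 3 without animal 6, and 4 higher and 1 lower with library size alone. The call of Pgam1 was lost without animal 6 (adjusted p = 0.0615) and with library size alone (adjusted p = 0.0673). Of 39 nuclear genes of oxidative phosphorylation 1 rose, and 27 had a positive log2FC. The median was 0.23, or -0.01 with library size alone and 0.49 without the WT low libraries of animals 1 and 9. Of 13 genes encoded in mitochondria 0 were called by edgeR, DESeq2 or limma-voom, and 0 had an unadjusted edgeR p under 0.05. The median of the mitochondrially encoded genes was -0.25, but 0.47 without the WT low libraries of animals 1 and 9. The single called gene was Cox6a2, the heart-type isoform of a cytochrome c oxidase subunit and a DAM gene, with 352, 471 and 761 CPM in GrnKO high and 64.1, 106 and 166 CPM in WT low (log2FC 2.26, SE 0.281, adjusted p = 1.62e-05).

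**Figure D2:**
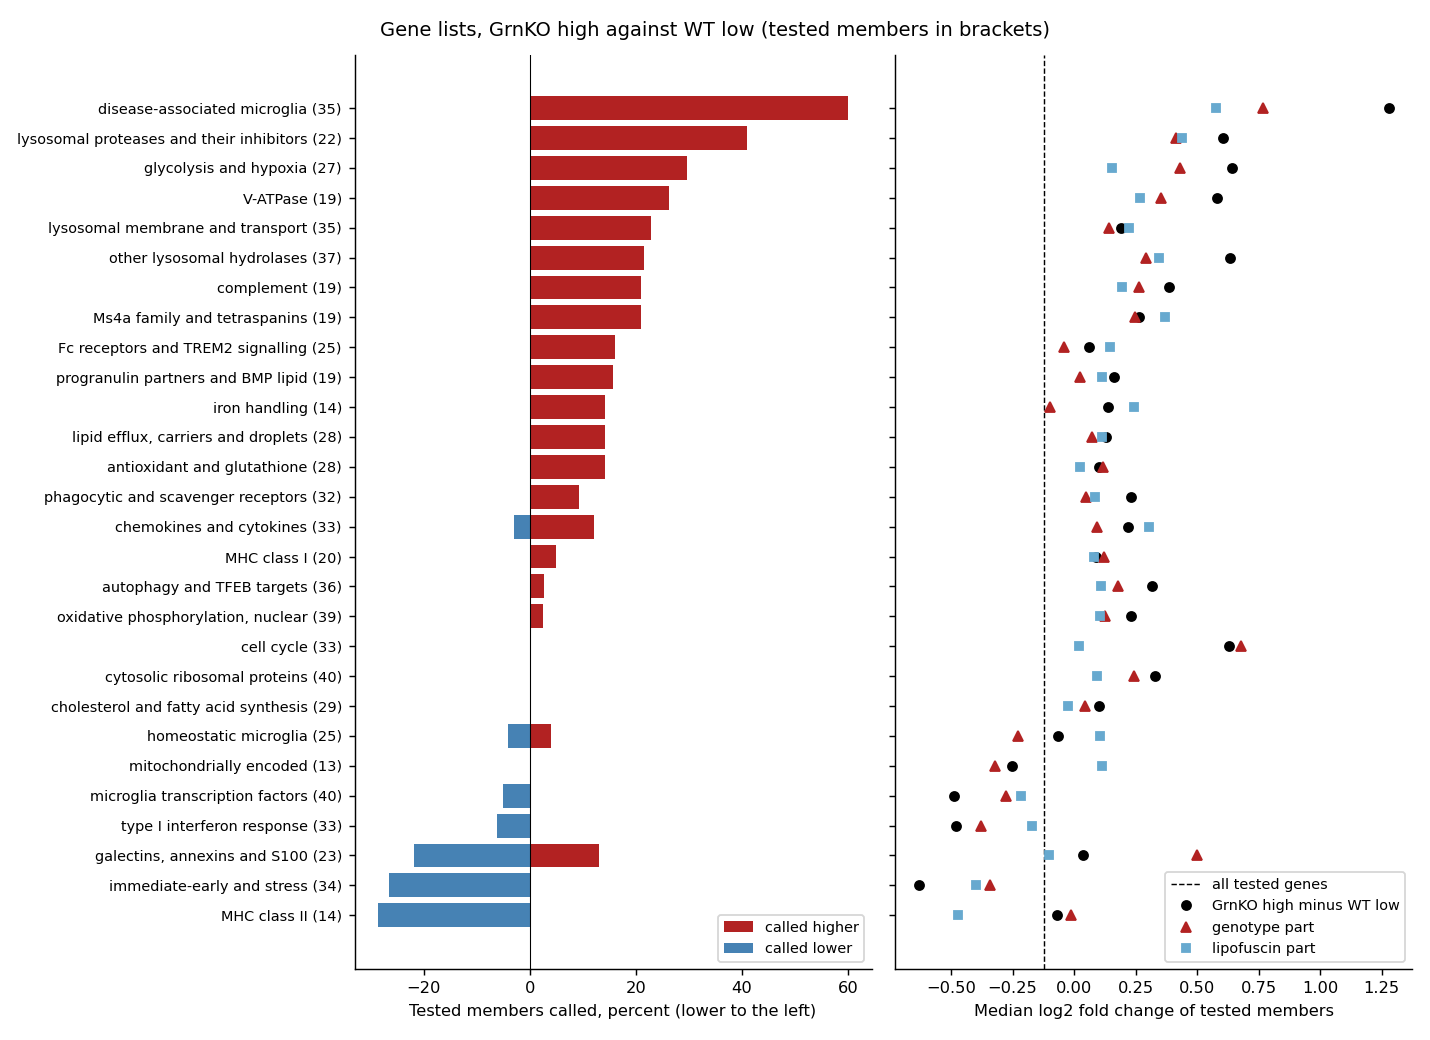
Left, percentage of the tested members of each gene list called higher (bars to the right) or lower (bars to the left) in GrnKO high against WT low, with the number tested in brackets; right, median log2 fold change of the tested members (circles) and of its genotype part (triangles) and lipofuscin part (squares), with the median of all 14090 tested genes as a dashed line. The DAM list has 21 of 35 members called higher and the immediate-early list 9 of 34 called lower; with library size alone the median changes sign for 13 of the 28 lists.

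Leaving out the WT low libraries of animals 1 and 9 also moved list values. The median log2FC was then 0.40 for lipid carriage, 0.27 for iron, 0.27 for antioxidant genes, 0.33 for lysosomal membrane proteins, 0.27 for galectins, annexins and S100 genes, 0.15 for complement, 0.12 for scavenger receptors, 0.17 for the Ms4a list, 0.07 for the progranulin partners and -0.16 for homeostatic genes. It changed sign for MHC class I (-0.07) and for cholesterol and fatty acid synthesis (-0.03). The called members were then 7 proteases, 6 lysosomal membrane proteins, 3 antioxidant genes, 3 complement genes, 2 scavenger receptors and 0 autophagy genes, none of them lower, with 4 higher and 1 lower in the Ms4a list and 4 in each direction among galectins, annexins and S100 genes.

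Receptors and secreted factors of the innate response changed in part. Of 25 Fc receptor and TREM2 pathway genes, 4 rose and 0 fell, with a median log2FC of 0.06. With library size alone 2 rose and 2 fell, with a median of -0.23, and without the WT low libraries of animals 1 and 9 the counts were again 2 and 2, with a median of -0.18. Trem2, the lipid-sensing receptor upstream of the DAM programme, had 3624, 3992 and 4497 CPM in GrnKO high and 831, 1917 and 2182 CPM in WT low (log2FC 1.19, SE 0.188, adjusted p = 0.000422). Tyrobp, its signalling adaptor, had 7247, 8906 and 14529 CPM in GrnKO high and 3552, 4048 and 4580 CPM in WT low (log2FC 1.24, SE 0.203, adjusted p = 0.000676). Receptor and adaptor therefore rose by nearly the same amount. Of 32 phagocytic and scavenger receptors 3 rose, or 1 without animal 3. Clec7a, the beta-glucan receptor dectin-1, had 138, 216 and 259 CPM in GrnKO high and 56.7, 83.5 and 136 CPM in WT low (log2FC 1.19, SE 0.199, adjusted p = 0.000903). Colec12, a scavenger receptor with a collagen-like stalk, had 6.23, 10.5 and 17.3 CPM in GrnKO high and 0, 0.0279 and 1.13 CPM in WT low (adjusted p = 0.0129, and 0.0524 without animal 3).

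Among 19 tested complement genes, 4 rose and 0 fell. The 3 chains of C1q, which starts the classical pathway and which microglia supply to the brain, moved alike. C1qa had 891, 979 and 1188 CPM in GrnKO high and 333, 581 and 642 CPM in WT low (log2FC 0.88, SE 0.185, adjusted p = 0.00894). C1qb had 9883, 12906 and 15221 CPM in GrnKO high and 3174, 7685 and 8030 CPM in WT low (log2FC 0.89, SE 0.173, adjusted p = 0.00427). C1qc had 8895, 10655 and 12454 CPM in GrnKO high and 2418, 6631 and 7067 CPM in WT low (log2FC 0.84, SE 0.186, adjusted p = 0.0154). In all 3 the groups were separated, and the lowest WT low library was that of animal 1, which carried the choroid plexus markers. With library size alone the 3 calls were lost (adjusted p = 0.0947, 0.0581 and 0.132), that of C1qc was also lost without any 1 of animals 2, 3 and 6 (adjusted p up to 0.0620), and without animal 3 the list had 2 calls.

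Of 33 chemokine and cytokine genes, 4 rose and 1 fell, with a median of 0.22, or -0.02 with library size alone. Ccl8, a monocyte-attracting chemokine, had 120, 281 and 439 CPM in GrnKO high and 7.01, 30.7 and 69.0 CPM in WT low (log2FC 3.14, SE 0.493, adjusted p = 0.000437). Wfdc17, a small secreted protein of activated macrophages, had 705, 982 and 1868 CPM in GrnKO high and 194, 230 and 448 CPM in WT low (log2FC 1.99, SE 0.247, adjusted p = 1.62e-05). The gene that fell was Cxcl13, a chemokine that attracts B cells. It had 5.26, 7.22 and 22.7 CPM in GrnKO high and 5.46, 80.4 and 472 CPM in WT low (log2FC -3.82, SE 0.885, adjusted p = 0.0283). WT low libraries spread widely and overlapped the GrnKO high libraries, and the call was lost without any 1 of animals 3, 4, 6, 10 and 11 (adjusted p up to 0.0912) and by limma-voom (adjusted p up to 0.197).

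Of 19 genes of the Ms4a family and the tetraspanins, 4 rose and 0 fell, with a median of 0.26, or -0.002 with library size alone. Ms4a7, a membrane protein of border macrophages and some disease-state microglia, had 445, 558 and 865 CPM in GrnKO high and 60.5, 105 and 153 CPM in WT low (log2FC 2.40, SE 0.261, adjusted p = 1.78e-06). Ms4a6d, of the same family, had 184, 257 and 294 CPM in GrnKO high and 78.4, 117 and 158 CPM in WT low (log2FC 1.12, SE 0.175, adjusted p = 0.000401). Ms4a7 is also in the list of border-associated macrophage markers. The 11 genes of that list summed to 706 to 1202 CPM in GrnKO high and 310 to 474 CPM in WT low, but Ms4a7 was the 1 member called and 6 of the 11 had a positive log2FC. The part of such cells in the result was not tested.

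Galectins, annexins and S100 genes changed in both directions: of 23 tested, 3 rose and 5 fell. Lgals3, a galectin that binds damaged lysosomes, had 779, 1102 and 1930 CPM in GrnKO high and 113, 336 and 414 CPM in WT low (log2FC 1.88, SE 0.267, adjusted p = 0.000108). Anxa5, which binds phosphatidylserine, had 331, 361 and 439 CPM in GrnKO high and 98.2, 160 and 183 CPM in WT low (log2FC 1.29, SE 0.221, adjusted p = 0.00115). The S100 genes, small calcium-binding proteins, went the other way. S100a6 had 30.0, 76.9 and 218 CPM in GrnKO high and 242, 540 and 641 CPM in WT low (log2FC -2.21, SE 0.460, adjusted p = 0.00904). S100a4 had 8.89, 10.7 and 17.3 CPM in GrnKO high and 26.5, 98.2 and 255 CPM in WT low (log2FC -3.15, SE 0.618, adjusted p = 0.00512). S100a10 had 22.2, 43.9 and 70.5 CPM in GrnKO high and 99.6, 133 and 345 CPM in WT low (log2FC -1.83, SE 0.339, adjusted p = 0.00258). The groups were separated for all 3, and likewise for S100a11, with 39.1, 56.3 and 138 CPM in GrnKO high and 145, 340 and 499 CPM in WT low (log2FC -2.09, SE 0.454, adjusted p = 0.0134, and no longer called without animal 6).

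The genes that fell most in GrnKO high with a level of at least 10 CPM in WT low included genes of circulating leukocytes. Ly6c2, a surface antigen of inflammatory monocytes, had 0.391, 7.56 and 15.2 CPM in GrnKO high and 54.6, 118 and 203 CPM in WT low (log2FC -4.06, SE 0.840, adjusted p = 0.0109). Itgal, the alpha chain of the leukocyte integrin LFA-1, had 0.0371, 1.31 and 5.26 CPM in GrnKO high and 9.97, 30.1 and 65.5 CPM in WT low (log2FC -4.73, SE 0.959, adjusted p = 0.00662, and up to 0.0733 by limma-voom). Ccr2, the receptor that brings monocytes out of the marrow, had 0.0439, 3.32 and 14.8 CPM in GrnKO high and 18.6, 59.6 and 90.7 CPM in WT low (log2FC -3.47, SE 0.836, adjusted p = 0.0288). Each was lower in 6 of 6 GrnKO high libraries than in any WT low library. Plac8, expressed in monocytes and granulocytes, had 0.186, 8.72 and 32.8 CPM in GrnKO high and 68.8, 111 and 655 CPM in WT low (log2FC -4.11, SE 1.02, adjusted p = 0.0440). The Ccr2 call was lost without any 1 of animals 2, 3, 4, 5, 10 and 11 (adjusted p up to 0.0961), and the Plac8 call without any 1 of animals 2, 3, 4, 5, 6, 7, 8, 10 and 11 (adjusted p up to 0.116). The whole list of 10 monocyte markers summed to 74.7 to 208 CPM in GrnKO high and 511 to 1584 CPM in WT low, with 3 members called lower and 10 of 10 negative. Neutrophil markers summed to 175 to 3694 CPM in GrnKO high and 1705 to 22827 CPM in WT low, with 0 of 12 called by edgeR, 10 of 12 at an unadjusted p under 0.05 and 12 of 12 negative. B cell markers summed to 493 to 750 CPM in GrnKO high and 598 to 2873 CPM in WT low, with 0 of 9 called by edgeR, 3 at an unadjusted p under 0.05 and 9 of 9 negative. No marker of these lists was at 0 in all GrnKO high libraries. The part of such cells in the falling S100 and MHC class II genes was not tested.

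Of 14 genes of antigen presentation by MHC class II, 4 fell and 0 rose, while the median log2FC of the list was -0.07, or -0.34 with library size alone and -0.39 without the WT low libraries of animals 1 and 9. The 4 were the alpha and beta chains of the class II molecule and their chaperone. Cd74, the invariant chain, had 69.2, 59.4, 61.4, 75.8, 63.1 and 44.5 CPM in the GrnKO high libraries of animals 2, 4, 6, 8, 10 and 12, against 159, 321, 331, 289, 175 and 331 CPM in the WT low libraries of animals 1, 3, 5, 7, 9 and 11 (log2FC -2.09, SE 0.230, adjusted p = 2.04e-06). The groups were far apart, and the 2 WT low libraries with choroid plexus markers were the lowest of their group. H2-Eb1 had 298, 383 and 758 CPM in GrnKO high and 733, 2129 and 2449 CPM in WT low (log2FC -2.08, SE 0.356, adjusted p = 0.00113). H2-Aa had 367, 459 and 725 CPM in GrnKO high and 665, 2415 and 2834 CPM in WT low (log2FC -2.08, SE 0.410, adjusted p = 0.00561). H2-Ab1 had 352, 467 and 791 CPM in GrnKO high and 280, 2370 and 2863 CPM in WT low (log2FC -1.97, SE 0.421, adjusted p = 0.0119, and 0.0563 without animal 4). For these 3 chains the groups overlapped, since the lowest WT low library lay below the highest GrnKO high library. MHC class I behaved differently: of 20 genes 1 rose and 0 fell, with a median of 0.09, or -0.17 with library size alone. The gene was B2m, the light chain of class I, with 11504, 14808 and 20064 CPM in GrnKO high and 8083, 8798 and 9824 CPM in WT low (log2FC 0.75, SE 0.143, adjusted p = 0.00356).

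Of 34 immediate-early and stress genes, 9 fell and 0 rose, and 24 had a negative log2FC, with a median log2FC of -0.63 against -0.12 for all tested genes. These genes are switched on within minutes of a stimulus, including tissue dissociation, and they were measured here in cells prepared with inhibitors of transcription and translation. Fos, a subunit of the AP-1 factor, had 26.6, 49.3 and 102 CPM in GrnKO high and 108, 331 and 428 CPM in WT low (log2FC -2.50, SE 0.307, adjusted p = 1.51e-05). Dusp1, a phosphatase that switches off MAP kinases, had 96.5, 159 and 197 CPM in GrnKO high and 350, 449 and 514 CPM in WT low (log2FC -1.56, SE 0.242, adjusted p = 0.000343). Egr1, a zinc-finger factor, had 6.14, 10.1 and 28.0 CPM in GrnKO high and 43.1, 82.3 and 121 CPM in WT low (log2FC -2.55, SE 0.409, adjusted p = 0.000513). All 3 were separated between the groups. Klf2, a factor that restrains inflammatory genes in myeloid cells, had 31.0, 49.1 and 75.0 CPM in GrnKO high and 99.7, 206 and 257 CPM in WT low (log2FC -1.92, SE 0.287, adjusted p = 0.000217). Egr1 and Klf2 were also the 2 of 40 microglia transcription factors called, both lower, and that list had a median of -0.49. With library size alone the counts were 13 immediate-early genes and 7 transcription factors, all lower.

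**Figure D3:**
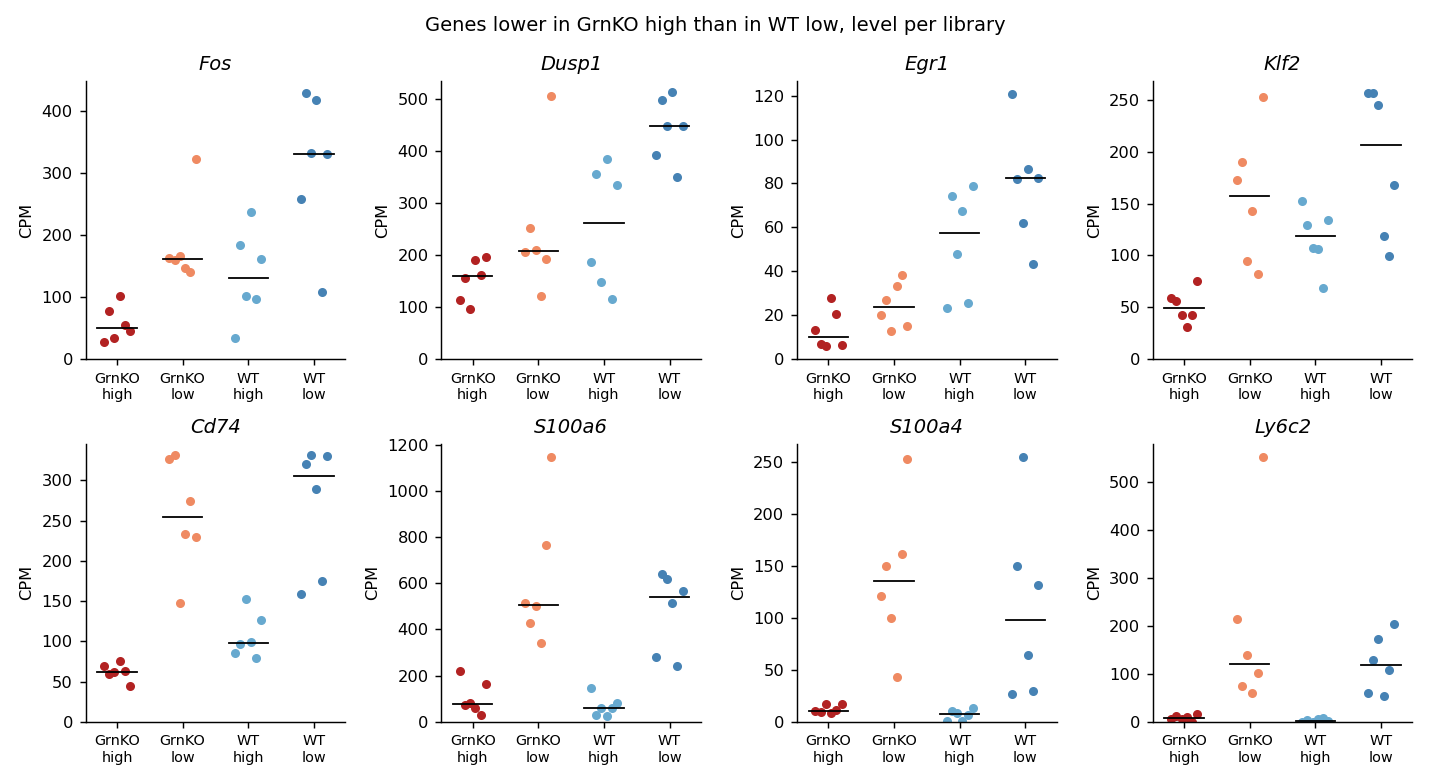
Level of 8 genes that were called lower, in CPM on a linear axis from 0, with 1 point per library, 6 libraries per group and a bar at the group median; groups run from GrnKO high at the left to WT low at the right. The medians of Fos, Dusp1, Egr1 and Klf2 are lowest in GrnKO high and highest in WT low, whereas Cd74, S100a6, S100a4 and Ly6c2 are low in both high bins and high in both low bins; Cd74 is 44.5 to 75.8 CPM in GrnKO high and 159 to 331 CPM in WT low.

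Several programmes gave few or no calls. Of 33 type I interferon response genes 2 fell, with a median of -0.48, but between 0 and 1 of them was called with any 1 animal left out and 0 without the WT low libraries of animals 1 and 9. Of 40 cytosolic ribosomal protein genes 0 were called by edgeR (17 at an unadjusted p under 0.05), against 7 by DESeq2, 1 by limma-voom and 3 by edgeR without animal 1. Of the 40, 37 had a positive log2FC, and the median was 0.33, or 0.07 with library size alone. Of 33 cell cycle genes 0 were called by edgeR (5 at an unadjusted p under 0.05), 2 by DESeq2 and 1 by limma-voom. Of the 33, 29 had a positive log2FC, and the median was 0.63, or 0.34 with library size alone. Of 36 genes of autophagy and TFEB targets 1 rose, with a median of 0.32, and that call was lost with library size alone and without any 1 of animals 2, 6 and 11.

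Because the groups differ in genotype and in bin, the log2FC of each gene was split exactly into a genotype part (GrnKO minus WT, averaged over both bins) and a lipofuscin part (high minus low, averaged over both genotypes), which add up to it. The difference between the parts equals the contrast of GrnKO low minus WT high, so that contrast tests gene by gene whether one part was larger than the other. For the 141 genes called higher, both parts were positive in 141, and the medians were 0.75 for the genotype part and 0.49 for the lipofuscin part. The genotype part was the larger in 106 of them and the lipofuscin part in 35. For the 81 genes called lower, both parts were negative in 70, and the medians were -0.66 for the genotype part and -1.07 for the lipofuscin part, with the lipofuscin part larger in 45. Over all tested genes the parts had the same sign in 7874. Genes called for their sum are likely to have parts of 1 sign, so these counts describe the called genes and test nothing.

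The parts differed by the test in 30 of all 14090 genes (0.213%), of which 26 (0.185%) were higher and 4 (0.0284%) lower in GrnKO low than in WT high. Among the 141 genes called higher this held for 5, each with the larger genotype part. Gpnmb had a genotype part of 6.45 and a lipofuscin part of 1.73 (adjusted p of the difference 8.06e-08). Fabp5 had parts of 2.52 and 1.04 in the same order (adjusted p = 0.000128), Gpx3 of 3.85 and 0.78 (adjusted p = 0.0394) and Lgals3 of 1.65 and 0.23 (adjusted p = 0.0127). The fifth was Gm1673, a gene with no assigned role here, named after its values were seen, with parts of 2.78 and 0.60 (adjusted p = 0.0401). Its level was 119 to 342 CPM in GrnKO high (median 155) and at most 90.7 CPM in WT low (median 8.37). Other DAM genes had parts of like size for which no difference was called, such as Apoe with a genotype part of 1.20 and a lipofuscin part of 1.15 (adjusted p = 0.995), Trem2 with 0.59 and 0.61 (adjusted p = 0.997) and Spp1 with 0.89 and 1.39 (adjusted p = 0.735). A p of this size does not show that the parts were equal.

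Among the 81 genes called lower, 11 had parts that differed. In 9 of them the lipofuscin part was larger: Anxa1, Cd74, Gpr141, Ly6c2, Plac8, S100a10, S100a11, S100a4 and S100a6. S100a4 had a genotype part of 0.61 and a lipofuscin part of -3.76 (adjusted p = 0.00148), S100a6 had 0.52 and -2.73 (adjusted p = 0.00148), and Ly6c2 had 0.93 and -4.98 (adjusted p = 0.00367). Cd74 had -0.41 and -1.68 (adjusted p = 0.00801). The other 3 called class II genes had parts of the same signs as Cd74 for which no difference was called (H2-Eb1 adjusted p = 0.0525, H2-Aa adjusted p = 0.103, H2-Ab1 adjusted p = 0.138). Monocyte markers had median sums of 114 CPM in GrnKO high, 147 CPM in WT high, 1008 CPM in GrnKO low and 1020 CPM in WT low. The WT high libraries of animals 1 and 9 had 926 and 773 CPM, within the range of WT low, and the other 4 WT high libraries 55.3 to 205 CPM. Neutrophil markers had median sums of 546 CPM in GrnKO high, 962 CPM in WT high, 10506 CPM in GrnKO low and 5782 CPM in WT low. Their highest sum was 33116 CPM, in the GrnKO low library of animal 12. T and NK cell markers had median sums of 154, 101, 895 and 350 CPM in the same order of groups. The part of monocytes, neutrophils, T cells and NK cells in the result was not tested. Anxa1 and Gpr141 were named after their values were seen. Anxa1, an anti-inflammatory annexin abundant in granulocytes and monocytes, had 2.32, 5.35 and 22.7 CPM in GrnKO high and 34.8, 46.5 and 172 CPM in WT low (log2FC -3.24, SE 0.795, adjusted p = 0.0360). That call was lost without any 1 of animals 2, 3, 4, 5, 6, 8, 10 and 11 (adjusted p up to 0.0997) and without the WT low libraries of animals 1 and 9 (adjusted p = 0.0685). Gpr141, an orphan receptor, was at 0 in 5 of 6 GrnKO high libraries and at 0.0346 CPM in the sixth, against 0.0756, 2.01 and 27.9 CPM in WT low (adjusted p = 0.00303). The other 2 genes had the larger genotype part. They were Grn, with a genotype part of -7.28 and a lipofuscin part of 0.08 (adjusted p = 0.000645), and Cxcl13, with -4.59 and 0.77 (adjusted p = 0.0139). Immediate-early genes had both parts negative with no difference called, as in Fos with -0.97 and -1.53 (adjusted p = 0.669) and Dusp1 with -0.76 and -0.80 (adjusted p = 0.996). The 30 calls of this contrast became 102 without animal 1, whose 2 libraries both carried choroid plexus markers, 15 without animal 3 and 16 without animal 7, and were 30 without animal 8.

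**Figure D4:**
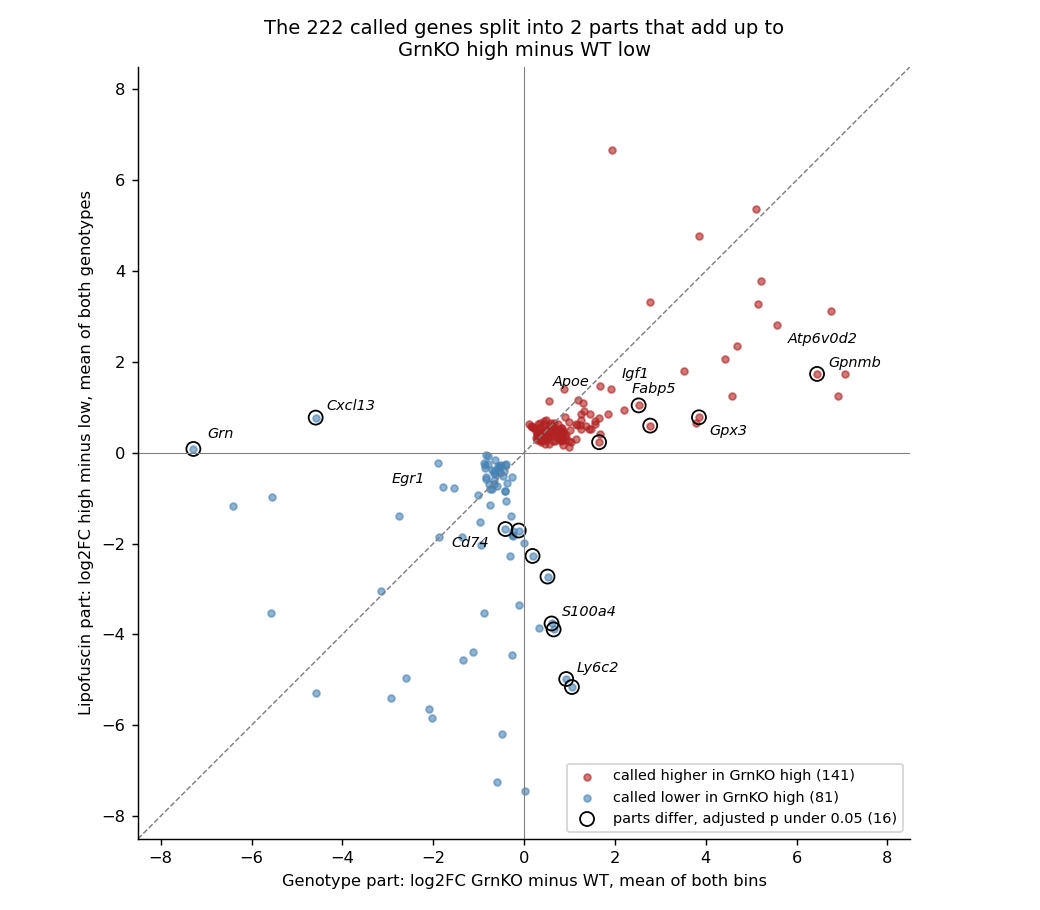
Genotype part (horizontal axis) against lipofuscin part (vertical axis), both log2 fold changes, of the 222 genes called between GrnKO high and WT low; the parts add up to the full difference and are equal on the dashed diagonal. All 141 genes called higher lie where both parts are positive; black circles mark the 16 genes whose parts differed by the test, including Gpnmb at 6.45 and 1.73 and S100a4 at 0.61 and -3.76.

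The remaining 12 libraries were placed between the corners. For this, genes were called in a fit of the GrnKO high and WT low libraries alone (183 genes, 119 higher and 64 lower). Each library was given a position, the median over genes of its log2 CPM scaled to 0 at the WT low mean and 1 at the GrnKO high mean. GrnKO low libraries lay at 0.441 to 0.756 (median 0.627) and WT high libraries at 0.286 to 0.635 (median 0.496). All 12 thus lay between the corners, and the ranges of the 2 groups overlapped. On the 119 genes higher in GrnKO high, GrnKO low lay at 0.526 to 0.825 and WT high at 0.221 to 0.661. On the 64 lower genes the order was turned, with GrnKO low at 0.187 to 0.478 and WT high at 0.372 to 0.574. As groups, GrnKO low had therefore covered more of the distance on rising genes and WT high more on falling genes. The ranges overlapped in both sets, so single libraries broke this order. The genes were chosen for the difference between the corners, and the scale was set on those same corner means. A place between the corners was therefore favoured in advance for the other libraries. These libraries did not choose the genes but come from the same animals, so the positions are a description.

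**Figure D5:**
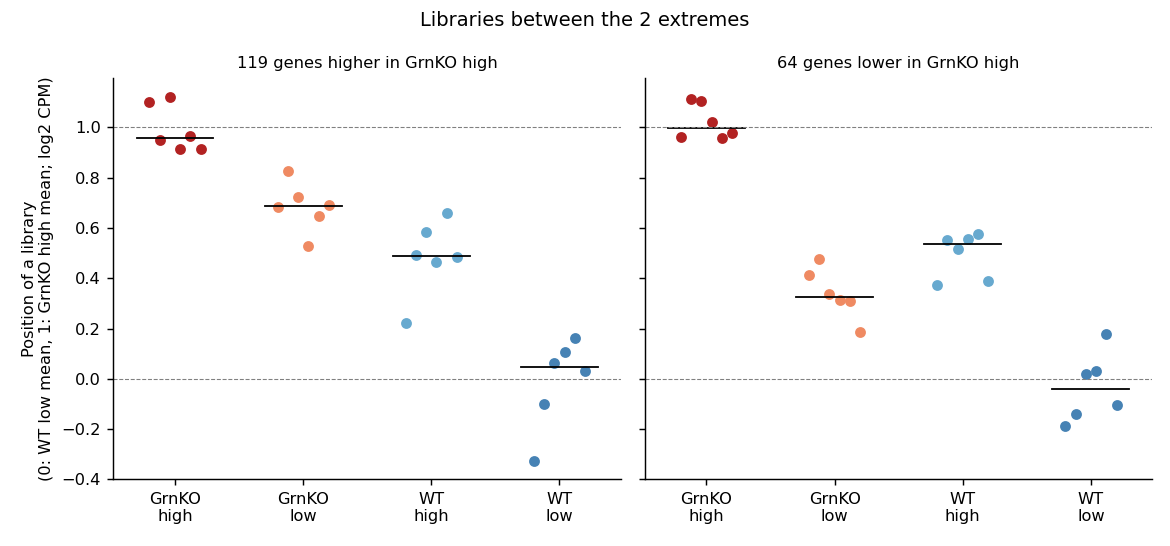
Position of each of the 24 libraries on the genes called between GrnKO high and WT low in a fit of those 12 libraries, for the 119 genes higher (left) and the 64 genes lower (right) in GrnKO high, where 0 is the WT low mean and 1 the GrnKO high mean on the log2 CPM scale; points are libraries and bars group medians. GrnKO low lies at 0.526 to 0.825 and WT high at 0.221 to 0.661 on the left, against 0.187 to 0.478 and 0.372 to 0.574 on the right; the corner groups lie near 1 and 0 by construction.

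Whether the effects of genotype and lipofuscin bin added up on the log2 scale was tested by their interaction. edgeR called 0 genes (741 had an unadjusted p under 0.05), while DESeq2 called 71. Each animal gave both bins, so the interaction and the lipofuscin part lie within animals. The edgeR and DESeq2 fits held no term for the animal and treated the 24 libraries as independent. limma-voom called 1 interaction gene, both with and without the animal as a random block. The difference between GrnKO high and WT low was also compared between the labelled sex classes, with 3 animals of each genotype per class. edgeR called 0 genes (824 at an unadjusted p under 0.05), and limma-voom with the animal as a random block also called 0.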

How the data were processed

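RNA was sequenced from 24 libraries of sorted microglia, 12 of which form the comparison. Per the labels' protocols, a SMARTSeq 3′ kit turned polyadenylated RNA into cDNA, which was tagmented with Nextera XT and read from a single end. Per the submitters' processing notes, the genome build was GRCm39 and the tools were R 4.5.1, edgeR 4.6.2, Salmon 1.10.1 and STAR 2.7.9a. The sources used here do not state how strand was handled, and no gene coordinates on that build are given.

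The authors deposited estimated counts per gene, written with at most 2 significant digits. Of the values between 0 and 10, 8.28% were not whole (tolerance 1e-09). The design had assumed counts, so these were rounded to whole numbers. Of 56980 genes, filterByExpr by group kept 14090. A quasi-likelihood model (edgeR 4.0.16, R 4.3.3, robust) was fitted to all 24 libraries with TMM scaling, a term for the sex label and 4 groups. Its common biological coefficient of variation came to 1.08. 2-sided p were adjusted by Benjamini-Hochberg over all tested genes, and called means under 0.05. Reads carried no molecular identifiers, and the rounding to 2 digits limits the precision of each count. Replicates are separate animals, and 0 pairs of libraries were identical. The script was tested on simulated counts.

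Alternatives were DESeq2 1.42.0, limma-voom (limma 3.58.1), other scalings, filters and sample sets, and each animal left out. Named genes were Grn, the 12 largest changes in each direction with at least 10 CPM in the higher group, up to 4 called members per list (2 in its other direction), and genes whose parts were both large or differed. Some were left out, 1 called homeostatic gene is not reported here, and Lamp1, Mfsd1, Gla, Dpp7, Anxa1, Gpr141 and Gm1673 were added after their values were seen. The groups, lists and rule were chosen with earlier results of these data known. Figures were drawn with matplotlib 3.10.9. An animal's 2 libraries deviated from their group means with r of -0.0157 to 0.321 (median 0.103).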

Additional observations from a re-analysis of the deposited data

Results flagged for a closer look

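The 146 sets of 6 libraries behind the 73 named genes were searched for a single library standing apart, by the gap to its nearest neighbour over the range of its group (Dixon's test at its 95% critical value). Of these sets 24 stood out, 8 in GrnKO high and 16 in WT low, in 21 genes. Chance alone gives about 1 in 20 for normally distributed values, but the test was run on linear CPM. A set with a single library above 0 is always flagged, as for Gpr141 in GrnKO high and Mcoln3 in WT low. The number of flagged sets is therefore not to be read against 1 in 20. Genes measured in the same library are also not independent.

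In GrnKO high, animal 4 had 17.8 CPM of Grn against a group median of 2.49 CPM. Animal 2 had 1384 CPM of Atp6v1f (median 884), 381 CPM of Prdx4 (median 265) and 0.0346 CPM of Gpr141 (median 0). Animal 6 had 614 CPM of Tpi1 (median 379) and animal 8 had 758 CPM of H2-Eb1 (median 383). Animal 12 had 22.7 CPM of both Cxcl13 (median 7.22) and Anxa1 (median 5.35).

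In WT low, animal 1 was low in 5 genes, with 333 CPM of C1qa (median 581), 3174 CPM of C1qb (median 7685), 2418 CPM of C1qc (median 6631), 831 CPM of Trem2 (median 1917) and 113 CPM of Lgals3 (median 336). The same library was high in Colec12 at 1.13 CPM (median 0.0279) and Gm1673 at 90.7 CPM (median 8.37), and held 26005 CPM of choroid plexus markers. Animal 9, with 82932 CPM of those markers, was high in Prdx4 at 178 CPM (median 110), Aldoa at 404 CPM (median 231), Mcoln3 at 0.216 CPM (median 0) and Atp6v0d2 at 0.431 CPM (median 0.0172). Animal 5 was high in Hpse at 4.48 CPM (median 0.196), S100a10 at 345 CPM (median 133), Plac8 at 655 CPM (median 111) and Gpr141 at 27.9 CPM (median 2.01). The WT low library of animal 11 had 472 CPM of Cxcl13 (median 80.4). Whether these cells of other types moved the named values in those libraries was not tested beyond leaving both out, which left 203 genes called.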

How the results depend on the processing

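Of the 73 named genes, 0 changed direction under any alternative that tested them, and 58 kept their call with each animal left out in turn. The call was kept by 53 under every alternative that tested the gene. A gene removed by a filter, or left without an adjusted p, was not counted as lost in that alternative. With library size alone 11 calls were lost, and in the fit of the 12 libraries 6. Without the filter on low counts 3 were lost. The fit without the WT low libraries of animals 1 and 9 (chosen after seeing the data) also lost 3. Losses were 2 without the covariate, 2 by limma-voom and 0 by DESeq2. The 222 genes called between GrnKO high and WT low became 686 with no filter beyond 1 count and 759 by DESeq2, and ranged from 130 to 331 with 1 animal left out. They were 243 with DESeq2 size factors, 256 with a mean of at least 10 CPM, 221 without the covariate and 183 in the fit of the 12 libraries. The 30 genes called between GrnKO low and WT high became 409 without the filter, 362 by DESeq2 and 124 by limma-voom, with a range of 15 to 102 over animals left out. The 0 interaction genes became 329 without the filter, 71 by DESeq2 and 1 by limma-voom, with 0 in every fit that left out 1 animal. The median positions ranged over animals left out from 0.536 to 0.660 for GrnKO low and from 0.426 to 0.508 for WT high. The causes of these shifts were not tested.

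GrnKO high and WT low hold different animals, so no fixed pairing between them could be fitted. With the animal as a random replicate block in limma-voom, 310 genes were called between them against 314 without the block, 133 against 124 between GrnKO low and WT high, and 1 in the interaction. The consensus correlation of an animal's 2 libraries was 0.0870, and 6 of 12 animals had an r over 0.1.

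With 6 animals a group and a coefficient of variation near 1.08, small changes and genes of low count are poorly resolved, and a gene that was not called is not shown to be unchanged. Folds of genes near 0 in WT low (Hpse, Mcoln3, Atp6v0d2, Colec12) rest on few counts.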
